A study of Mus musculus with 6 samples.

Results

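Ribosome assembly factors, the proteins that build ribosomal subunits in the nucleolus, were followed in mouse B cells with and without ligation of the antigen receptor. The list held 60 genes, chosen by name with earlier results of these data known. Each was read from the probe whose single platform symbol was that gene and whose mean log2 intensity over the 6 arrays was highest. Of the 60 genes 58 had such a probe and 51 passed the filter on dim probes, out of 19057 genes with a probe and 11843 genes tested in all. A probe passed if 3 or more of the 6 arrays read it above their own median, and the 7 members that failed it are given with their values and no test. The remaining 2, Fbl and Npm3, were not analysed here. By textbook role 9 genes belong to the box C/D and H/ACA ribonucleoproteins, 26 to the small-subunit processome and small-subunit precursors, 19 to large-subunit precursors, and 6 are other nucleolar proteins.

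The anti-IgM group was 3 samples of B lymphocytes purified from spleens of C57BL/6 mice aged 8 weeks and given goat F(ab')2 fragments against mouse IgM at 2.5 µg/ml for 3 h. The untreated group was 3 samples of such cells labelled untreated or control. The treatment text, identical for all 6 samples, also names IL-4 at 5 ng/ml and CD40L at 200 ng/ml without tying them to samples. Whether the untreated cells received these 2 agents is therefore unknown here, and their effects and that of anti-IgM cannot be told apart if they did not. The labels leave it unsaid whether the 3 samples of a group are separate mice or cultures, so part of the spread that the p-values measure may be technical.

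Ribosomes are assembled on a long precursor RNA that RNA polymerase I transcribes in the nucleolus. Box C/D and H/ACA ribonucleoproteins use guide RNAs to place methyl groups and pseudouridines on it, the small-subunit processome folds and cuts its leading part, and a separate chain of factors matures the large subunit. Lymphocytes that leave rest for growth are known to enlarge their nucleoli and make more ribosomes, and Myc is a textbook activator of the genes involved.

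All levels below are log2 normalized intensities of 1 probe, and all changes are log2 differences, anti-IgM minus untreated, ± the standard error (SE) of a limma fit to all genes tested, n = 3 arrays per group. The arrays had been scaled to almost the same distribution (medians of 72.8 on a linear scale, 6.19 in log2), so these are changes relative to other transcripts and not amounts per cell. In such bulk samples fewer cells of a type and less RNA per cell cannot be told apart. All 9 B cell markers with a probe passed the filter, as did all 8 macrophage and all 7 neutrophil markers. Passing it therefore does not identify the cells. Of the 9 B cell markers 7 were lower with anti-IgM, Cd22 most (-2.95 ± 0.20), where 23.9% of all genes tested were lower. Their summed linear intensity was 54691 to 62444 in anti-IgM and 87417 to 98691 in untreated samples. Summed T cell markers had 1810 to 2094 in anti-IgM and 2567 to 2961 in untreated samples, with 2 of 8 tested lower, Cd28 (-1.35 ± 0.16) and Cd8b1 (-0.58 ± 0.10). Summed dendritic cell markers had 3010 to 4178 in anti-IgM and 4679 to 7198 in untreated samples, with Zbtb46 (1.76 ± 0.14) and Bst2 (0.56 ± 0.15) higher and Cst3 (-1.22 ± 0.20) and Xcr1 (-0.52 ± 0.11) lower among 6 tested. The summed markers overlapped between the groups for natural killer cells (2426 to 4729 in anti-IgM and 2028 to 5933 in untreated samples), macrophages (1623 to 2741 in anti-IgM and 1729 to 6103 in untreated samples), neutrophils (953 to 1180 in anti-IgM and 1093 to 2035 in untreated samples) and erythroid cells (2712 to 4862 in anti-IgM and 2789 to 4685 in untreated samples). For natural killer cells, macrophages and neutrophils the overlap came from untreated replicate 1 alone (2028, 1729 and 1093). In replicates 2 and 3 the anti-IgM sums of these cell types lay below the untreated ones. For macrophages they were 2045 and 2741 in anti-IgM, against 4700 and 6103 in untreated samples. Of 6 natural killer cell genes tested Nkg7 rose (1.20 ± 0.21) and Klrd1 fell (-0.78 ± 0.15), of 8 macrophage genes Adgre1 fell (-2.10 ± 0.22), of 7 neutrophil genes S100a8 (-0.97 ± 0.32) and S100a9 (-0.85 ± 0.22) fell, and of 5 erythroid genes Car2 rose (2.30 ± 0.19). Plasma cell markers summed to 20654 to 24127 in anti-IgM and 31026 to 40059 in untreated samples, with Irf4 (1.81 ± 0.12) higher and Mzb1 (-2.14 ± 0.09) and Sdc1 (-1.24 ± 0.32) lower among 5 tested. What part these shifts have in the changes below was not tested. Replicate 1 of both groups differed from the rest in Xist, a transcript of female cells, which had a linear intensity of 52.6 in anti-IgM and 52.6 in untreated replicate 1, against 791 and 962 in the other anti-IgM samples and 1646 and 2031 in the other untreated samples. The Y-linked gene Eif2s3y ran the other way, with 516 in anti-IgM and 1043 in untreated replicate 1, and 48.6 to 54.0 in the other anti-IgM and 55.4 to 56.4 in the other untreated samples. In both groups replicate 1 thus read as male and replicates 2 and 3 as female, so that replicate 1 did not come from the same mice as the rest. Left without both replicate 1 arrays, the fit called the same 50 members described next.

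Nearly every member that could be measured was higher in B cells given anti-IgM. Of the 51 members tested 50 rose and none fell at an adjusted p under 0.05, 1 was not called, and in the same fit 23.2% of all genes tested rose and 23.9% fell, 47.1% together. Among the 50 was Rrs1, which passed the filter through the anti-IgM arrays alone. The median change of the members tested was 1.96, a 3.88-fold difference, while the median of all 11843 genes was 0.02. Among the members 46 rose at least 2-fold and 22 at least 4-fold, against 9.38% and 1.66% of all genes. Readings of the 3 anti-IgM arrays lay above all 3 untreated ones in 50 members, where 27.8% of all genes showed this, and below them in no member, against 27.0% of all genes. The exception was Dkc1. Ranked by change among the 11843 genes, 42 of the 51 lay in the highest 5%, and the first of them, Rrp1b, had rank 25. The median was 2.17 for the 17 large-subunit factors tested, 2.03 for the 8 ribonucleoprotein members, 1.78 for the 5 other nucleolar proteins and 1.70 for the 21 small-subunit factors. These groups were not tested against each other.

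**Figure D1:**
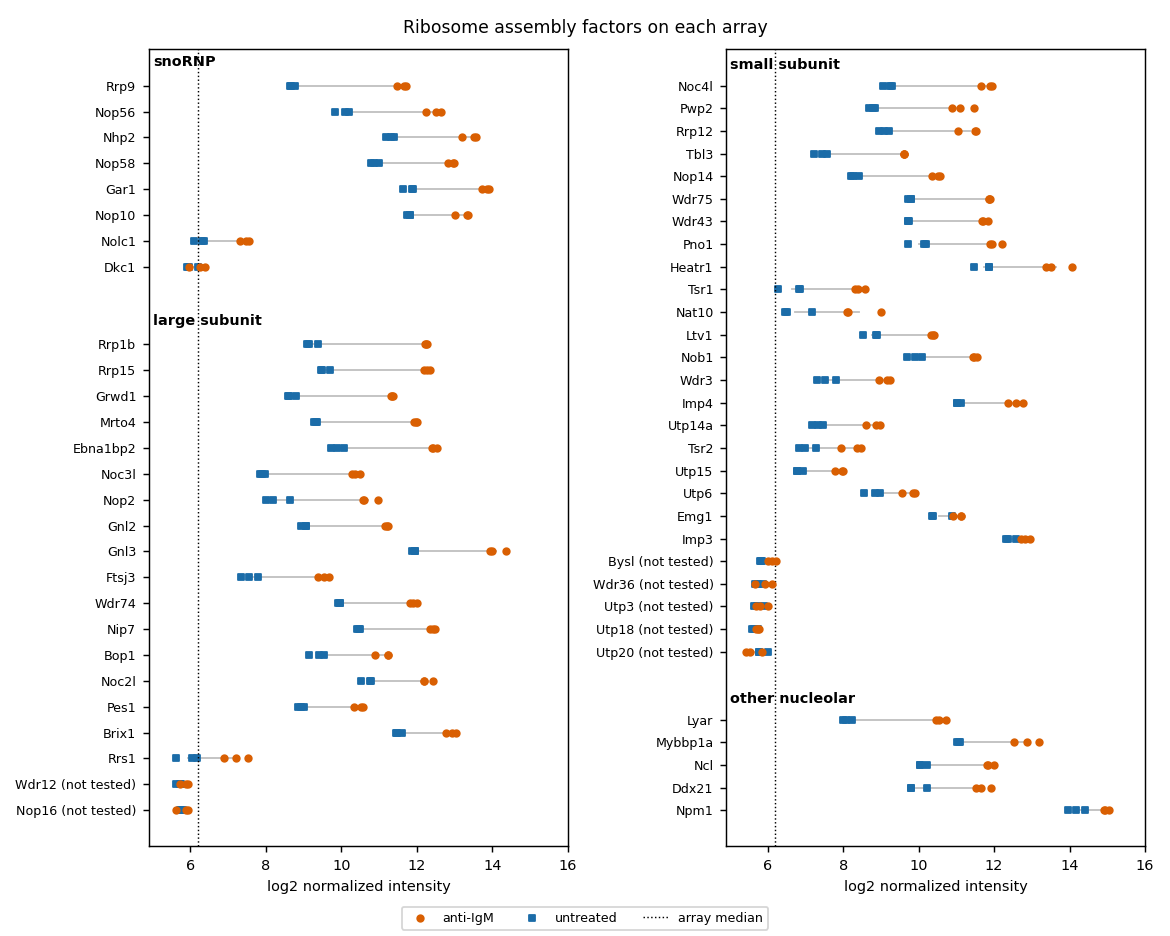
Log2 normalized intensity of the 58 ribosome assembly factors with a probe on each of the 3 anti-IgM (circles) and 3 untreated (squares) arrays, with 1 gene per row, a grey line between the group means and a dotted line at the array median (snoRNP, box C/D and H/ACA ribonucleoproteins). In 50 of the 51 tested members every circle lies to the right of every square, and the 7 untested members sit near or below the median.

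Sequences around the annotated starts of these genes were examined because the members moved together. RefSeq promoter windows of build GRCm38.p6, from 250 bases before to 50 after an annotated start, were found for 51 of the 60 members. The hexamer CACGTG, which is its own complement and is the E-box that Myc and Max bind, occurred in the windows of 12 of these 51 members (23.5%), in 8.09% of all 27025 genes in the promoter table and in 11.5% of the 9572 genes that were tested on the arrays. CACGCG, counted on both strands, occurred in 25.5% of the members, 10.5% of all genes and 18.4% of the genes tested. CCGGAAG, an ETS-type motif counted on both strands, occurred in 39.2%, 9.93% and 18.6%. Among 57 ribosomal protein genes with a window, CCGGAAG occurred in 42.1%, a share like that of the members, CACGCG in 17.5% and CACGTG in 10.5%. These are descriptions of letters in a window, and nothing about binding was measured. The 10 tested members with CACGTG had a median change of 1.80, and the 34 tested members with a window that lacked it 1.97.

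The 7 windows printed here are those of the largest rise in each of the 4 role groups (Rrp9, Noc4l, Rrp1b, Lyar) and, where a group has any, of the largest rise among its members with CACGTG (Wdr43, Grwd1, Mybbp1a). Rrp1b has 2 annotated starts, of which the one with the lower coordinate is shown. Each runs 5′ to 3′ on the gene's strand, and capitals mark matches to the 3 motifs on either strand.
Rrp9 (chr9:106477059-106477358, plus strand): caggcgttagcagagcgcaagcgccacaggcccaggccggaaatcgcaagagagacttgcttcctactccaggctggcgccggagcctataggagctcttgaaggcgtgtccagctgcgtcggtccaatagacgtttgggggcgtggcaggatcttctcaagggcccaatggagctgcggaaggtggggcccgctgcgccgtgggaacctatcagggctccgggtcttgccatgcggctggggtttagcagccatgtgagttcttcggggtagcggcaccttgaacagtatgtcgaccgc
Noc4l (chr5:110653333-110653632, minus strand): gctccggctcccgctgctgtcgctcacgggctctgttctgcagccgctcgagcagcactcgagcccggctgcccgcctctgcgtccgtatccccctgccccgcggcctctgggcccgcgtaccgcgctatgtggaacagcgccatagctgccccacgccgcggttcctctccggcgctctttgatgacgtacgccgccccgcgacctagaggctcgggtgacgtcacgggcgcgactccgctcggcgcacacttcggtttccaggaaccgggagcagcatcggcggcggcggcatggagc
Wdr43 (chr17:71615965-71616264, plus strand): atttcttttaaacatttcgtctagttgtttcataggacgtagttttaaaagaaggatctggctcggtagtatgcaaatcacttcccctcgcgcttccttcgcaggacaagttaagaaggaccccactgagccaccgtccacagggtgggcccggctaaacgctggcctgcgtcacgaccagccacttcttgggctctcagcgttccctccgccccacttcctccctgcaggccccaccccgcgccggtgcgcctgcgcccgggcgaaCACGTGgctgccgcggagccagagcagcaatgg
Rrp1b (chr17:32035912-32036211, plus strand): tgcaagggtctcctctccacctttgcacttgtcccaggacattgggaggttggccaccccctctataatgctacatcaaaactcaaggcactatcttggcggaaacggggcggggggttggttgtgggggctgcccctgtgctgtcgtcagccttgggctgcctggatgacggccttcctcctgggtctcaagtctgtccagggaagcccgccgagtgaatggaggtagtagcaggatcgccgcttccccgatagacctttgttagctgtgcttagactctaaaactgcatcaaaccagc
Grwd1 (chr7:45830740-45831039, minus strand): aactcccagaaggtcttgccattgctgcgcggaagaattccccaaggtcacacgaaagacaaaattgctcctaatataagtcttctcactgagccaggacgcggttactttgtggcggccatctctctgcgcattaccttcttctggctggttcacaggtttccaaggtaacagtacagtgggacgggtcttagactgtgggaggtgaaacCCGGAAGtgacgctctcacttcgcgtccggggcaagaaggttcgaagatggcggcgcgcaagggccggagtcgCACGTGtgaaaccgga
Lyar (chr5:38220232-38220531, plus strand): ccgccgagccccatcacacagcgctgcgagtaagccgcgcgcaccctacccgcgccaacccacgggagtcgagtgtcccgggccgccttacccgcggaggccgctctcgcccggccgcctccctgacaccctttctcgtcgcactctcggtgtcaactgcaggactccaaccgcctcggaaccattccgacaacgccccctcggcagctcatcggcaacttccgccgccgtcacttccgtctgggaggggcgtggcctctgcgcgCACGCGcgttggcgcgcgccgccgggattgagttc
Mybbp1a (chr11:72441077-72441376, plus strand): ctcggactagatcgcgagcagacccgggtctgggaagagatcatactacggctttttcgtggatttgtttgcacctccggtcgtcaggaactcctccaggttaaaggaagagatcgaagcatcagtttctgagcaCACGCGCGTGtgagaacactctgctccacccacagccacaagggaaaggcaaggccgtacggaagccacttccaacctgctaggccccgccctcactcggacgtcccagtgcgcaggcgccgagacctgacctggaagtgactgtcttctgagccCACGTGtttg
CACGTG begins 17 bases downstream of the start of Wdr43, 34 bases downstream in Grwd1 and 40 bases downstream in Mybbp1a. Grwd1 also holds CCGGAAG, and in Mybbp1a the 10 capitals upstream are CACGCG overlapping its own reverse complement. Rrp9, Noc4l and Rrp1b, which are among the members that rose most, have none of the 3 motifs in these windows.

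Among the box C/D and H/ACA ribonucleoproteins 7 of 8 tested members rose. Rrp9 binds the U3 RNA, the box C/D RNA that joins the small-subunit processome, and had 11.72, 11.65 and 11.48 in anti-IgM samples, against 8.66, 8.64 and 8.77 in untreated samples. The lowest anti-IgM reading lay well above the highest untreated one, and the rise was 7.61-fold (2.93 ± 0.11, adjusted p = 2.16e-08, limma). Nop56, a core protein of every box C/D particle, had 12.23, 12.65 and 12.49 in anti-IgM and 9.83, 10.09 and 10.21 in untreated samples, a rise of 5.33-fold (2.41 ± 0.13, adjusted p = 2.18e-07, limma). Its paralog and partner Nop58 had 12.82, 12.96 and 12.99 in anti-IgM samples, against 10.79, 11.00 and 10.85 in untreated samples and rose 4.12-fold (2.04 ± 0.10). Neither gene's groups overlapped, and their changes lie near each other.

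The H/ACA particle divided into 3 members with large rises and 1 without a call. Nhp2, an RNA-binding core protein, had 13.20, 13.51 and 13.55 in anti-IgM and 11.19, 11.30 and 11.39 in untreated samples, a rise of 4.38-fold (2.13 ± 0.11, adjusted p = 1.65e-07, limma). Gar1, another protein of the particle, had 13.91, 13.84 and 13.72 in anti-IgM samples, against 11.90, 11.63 and 11.88 in untreated samples. It rose 4.07-fold (2.02 ± 0.10). Nop10, the smallest core protein, had 13.02, 13.34 and 13.35 in anti-IgM and 11.75, 11.81 and 11.82 in untreated samples and rose 2.72-fold (1.45 ± 0.10). Dkc1 encodes dyskerin, the pseudouridine synthase of the same particle, and had 6.37, 5.95 and 6.25 in anti-IgM samples, against 5.97, 6.20 and 5.91 in untreated samples. Its groups overlapped and it was not called (0.17 ± 0.14, adjusted p = 0.389). Only 2 of the 3 anti-IgM readings and 1 of the 3 untreated readings of Dkc1 exceeded the array median, and its other probe failed the filter, so a change of the size seen in its partners may not be detectable here. Nolc1, a chaperone of both particle types that shuttles between nucleolus and Cajal bodies, had 7.55, 7.48 and 7.31 in anti-IgM and 6.35, 6.30 and 6.09 in untreated samples. Its untreated readings were close to the array median, and it rose 2.29-fold (1.20 ± 0.15).

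All 21 small-subunit factors tested rose, 18 of them at least 2-fold, with changes from 0.41 to 2.64. UTP-A, the complex that binds the precursor RNA first, had all 4 of its listed members higher. Wdr75 had 11.86, 11.87 and 11.90 in anti-IgM samples, against 9.79, 9.80 and 9.73 in untreated samples, a rise of 4.29-fold (2.10 ± 0.09, adjusted p = 4.22e-08, limma). Its replicates within a group differed by less than 0.1, among the tightest of the members. Wdr43, a repeat protein of the complex, rose 4.03-fold (2.01 ± 0.09) and Heatr1, its very long helical-repeat subunit, 3.79-fold (1.92 ± 0.18). Utp15, dim in untreated cells at 6.82, rose 2.13-fold (1.09 ± 0.15). UTP-B, which joins next, had 4 tested members and all rose. Pwp2, its scaffold, had 11.46, 11.09 and 10.89 in anti-IgM and 8.78, 8.69 and 8.85 in untreated samples and rose by 5.18-fold (2.37 ± 0.15, adjusted p = 4.44e-07, limma). Of its other subunits, the beta-propeller proteins Tbl3 and Wdr3 rose 4.60-fold (2.20 ± 0.14) and 2.97-fold (1.57 ± 0.16), and Utp6, a helical-repeat protein, rose 1.97-fold (0.98 ± 0.15).

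The rest of the processome held both the largest and the smallest change of the small-subunit factors. Noc4l, which works in a complex with Nop14 and Emg1, had 11.88, 11.94 and 11.66 in anti-IgM samples, against 9.29, 9.05 and 9.23 in untreated samples, the largest rise of the small-subunit factors at 6.22-fold (2.64 ± 0.11, adjusted p = 4.83e-08, limma). Nop14, the elongated protein that the complex is named for, rose 4.55-fold (2.19 ± 0.12). Emg1, the methyltransferase of that complex, had 11.13, 10.92 and 11.12 in anti-IgM and 10.89, 10.36 and 10.38 in untreated samples, and the groups came close without overlapping. Its change was 0.51 ± 0.15 (adjusted p = 0.0140, limma), and it missed the threshold without anti-IgM replicate 3 (0.0503), untreated replicate 2 (0.0612) or untreated replicate 3 (0.0690). Imp4 and Imp3 work side by side on the U3 RNA. Imp4 had 12.76, 12.58 and 12.35 in anti-IgM samples, against 11.02, 11.01 and 11.12 in untreated samples and rose 2.86-fold (1.52 ± 0.11), while Imp3 had 12.81, 12.96 and 12.72 in anti-IgM and 12.36, 12.58 and 12.31 in untreated samples, the smallest change among the called members (0.41 ± 0.10, adjusted p = 0.00735). Imp3 read above 12 in all samples, far from the array median. Nat10, the acetyltransferase of the small-subunit RNA, had 8.99, 8.14 and 8.11 in anti-IgM samples, against 7.18, 6.50 and 6.45 in untreated samples. Replicate 1 exceeded the mean of replicates 2 and 3 by 0.87 in anti-IgM and 0.71 in untreated samples, its SE was the largest of the members, and the rise was 3.25-fold (1.70 ± 0.27, adjusted p = 3.84e-04, limma). Utp14a, which activates the helicase that frees U3, rose 2.81-fold (1.49 ± 0.16).

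By their brightest probes, factors of the later small-subunit precursor rose in 6 of 6 tested members, each at least 2-fold. Rrp12, a repeat protein that goes with the precursor to export, had 11.50, 11.05 and 11.51 in anti-IgM and 9.20, 9.07 and 8.94 in untreated samples, a rise of 4.87-fold (2.28 ± 0.14, adjusted p = 4.70e-07, limma). Pno1, which sits at the cleavage site that the nuclease Nob1 cuts, rose 3.99-fold (2.00 ± 0.14), and Nob1 itself rose 2.99-fold (1.58 ± 0.11). Ltv1, which leaves the particle in the cytoplasm, rose 3.06-fold (1.62 ± 0.13). Tsr1, a GTPase-like placeholder, rose 3.43-fold (1.78 ± 0.19), and Tsr2, the chaperone of the ribosomal protein Rps26, 2.34-fold (1.23 ± 0.19). Dimmer probes of Tsr1 and Tsr2 changed less, as given below.

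Large-subunit factors rose in 17 of 17 tested members. For 16 of them, all above the array median on all 6 arrays, the changes ran from 1.40 for Brix1 to 3.04 for Rrp1b, and the other, Rrs1, had only a bound. Of the PeBoW complex, which is needed to process the large-subunit RNA, Bop1 had 11.24, 10.90 and 11.23 in anti-IgM samples, against 9.40, 9.14 and 9.54 in untreated samples and rose 3.40-fold (1.77 ± 0.14). Pes1 rose 2.94-fold (1.55 ± 0.11), and its partner Wdr12 was not tested. Rrp1b, a nucleolar protein of the large-subunit pathway, had 12.28, 12.21 and 12.24 in anti-IgM and 9.08, 9.14 and 9.38 in untreated samples, the largest rise among all members at 8.24-fold (3.04 ± 0.11, adjusted p = 1.62e-08, limma). All 4 of its probes were called and gave changes between 2.69 and 3.22.

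The other tested factors of the early large-subunit particle rose less than Rrp1b. Rrp15, which in yeast is part of the earliest large-subunit particles, had 12.19, 12.35 and 12.26 in anti-IgM samples, against 9.70, 9.48 and 9.45 in untreated samples, a rise of 6.61-fold (2.72 ± 0.10, adjusted p = 2.37e-08, limma). Ebna1bp2, whose yeast homolog joins the same particles, rose 5.92-fold (2.57 ± 0.11). Nop2, which methylates a cytosine of the large-subunit RNA, rose 5.41-fold (2.43 ± 0.17), and Ftsj3, a ribose methyltransferase, 3.92-fold (1.97 ± 0.16). Noc2l and Noc3l, which in yeast pair with each other, rose 3.03-fold (1.60 ± 0.11) and 5.58-fold (2.48 ± 0.12). The RNA-binding factors Nip7 and Brix1 rose 3.88-fold (1.96 ± 0.09) and 2.64-fold (1.40 ± 0.10). Rrs1, which in yeast helps load the particle of the small 5S RNA, had 6.89, 7.21 and 7.53 in anti-IgM and 6.16, 5.62 and 6.04 in untreated samples. It was above the array median in none of the untreated samples and thus passed the filter through the anti-IgM arrays alone. Set against the array median, Rrs1 was at least 2.03-fold higher.

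All 5 factors that act later or load ribosomal proteins rose, with changes between 1.96 and 2.68. Grwd1, a chaperone of the ribosomal protein Rpl3, had 11.32, 11.33 and 11.36 in anti-IgM samples, against 8.78, 8.58 and 8.60 in untreated samples, a rise of 6.42-fold (2.68 ± 0.10, adjusted p = 2.66e-08, limma). Mrto4 holds the place of the stalk protein Rplp0 and had 11.96, 12.01 and 11.92 in anti-IgM and 9.28, 9.36 and 9.32 in untreated samples. Its readings spread by no more than 0.1 within a group, and it rose 6.25-fold (2.64 ± 0.09). The GTPases Gnl2 and Gnl3, the second known as nucleostemin, rose 4.51-fold (2.17 ± 0.10) and 4.50-fold (2.17 ± 0.12). Wdr74 rose 3.89-fold (1.96 ± 0.09).

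The other nucleolar proteins rose in 5 of 5 tested members. Lyar, a nucleolar zinc finger protein of growing cells, had 10.45, 10.55 and 10.73 in anti-IgM samples, against 8.00, 8.07 and 8.23 in untreated samples, a rise of 5.57-fold (2.48 ± 0.12, adjusted p = 1.27e-07, limma). Mybbp1a, a nucleolar regulator of transcription, rose 3.52-fold (1.81 ± 0.15), and Ncl, which encodes the abundant protein nucleolin, 3.45-fold (1.78 ± 0.10). Ddx21, a helicase that binds both RNA polymerase I templates and small nucleolar RNAs, rose 3.36-fold (1.75 ± 0.15). Npm1, the histone chaperone nucleophosmin, had 14.94, 14.91 and 15.04 in anti-IgM and 13.95, 14.40 and 14.18 in untreated samples, the highest levels of any member's probe. The anti-IgM mean came within 1 log2 unit of the least bright array's maximum (15.52), close to the end of the scale, and the change was 0.79 ± 0.11 (adjusted p = 1.96e-04, limma). Npm1 also has processed copies in the genome that a probe could read along with it, which was not tested.

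The 7 members left without a test read between 5.44 and 6.23 on all arrays, each with a single probe. Bysl, a small-subunit precursor factor, had 6.01, 6.23 and 6.10 in anti-IgM samples, against 5.78, 5.83 and 5.86 in untreated samples. Its anti-IgM readings were all above its untreated ones, and only 1 array exceeded the median. Wdr36 of UTP-B had 6.12, 5.67 and 5.92 in anti-IgM and 5.75, 5.65 and 5.87 in untreated samples. Utp18 of the same complex had 5.76, 5.69 and 5.73 in anti-IgM samples, against 5.63, 5.75 and 5.59 in untreated samples. In both genes the readings of the groups overlapped. Utp3, a processome protein, had 5.79, 6.01 and 5.70 in anti-IgM and 5.72, 5.91 and 5.64 in untreated samples. Utp20, a very large scaffold protein of the processome, had 5.44, 5.52 and 5.86 in anti-IgM samples, against 6.00, 5.76 and 5.76 in untreated samples, and was the only untested member with a lower mean in the anti-IgM group. Wdr12 had 5.89, 5.93 and 5.71 in anti-IgM and 5.72, 5.75 and 5.62 in untreated samples, and Nop16, a large-subunit factor, had 5.93, 5.87 and 5.60 in anti-IgM samples, against 5.74, 5.81 and 5.71 in untreated samples. With the filter lifted and 19057 genes tested, none of the 7 was called (limma adjusted p between 0.0623 and 0.815), and 1 of them, Bysl, had an unadjusted p under 0.05 (0.0184). At such levels the arrays cannot show whether these transcripts changed.

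Change was also set beside level. The 7 tested members with a mean under 8 over the 6 arrays had a median change of 1.23, and the other 44 had 2.00. A rise itself lifts the mean over all arrays, and by the untreated mean alone the median was 1.53 for 12 members under 8 and 2.01 for the other 39. Neither order holds for single genes, since the brighter Imp3, Emg1 and Npm1 changed least among the called members. By the untreated mean, Noc3l and Tbl3, both under 8, also rose more than 4-fold. The lowest intensity on any array was 34.4 on the linear scale, so these values keep a background that was not taken off, and its part in the changes of dim members was not tested.

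**Figure D2:**
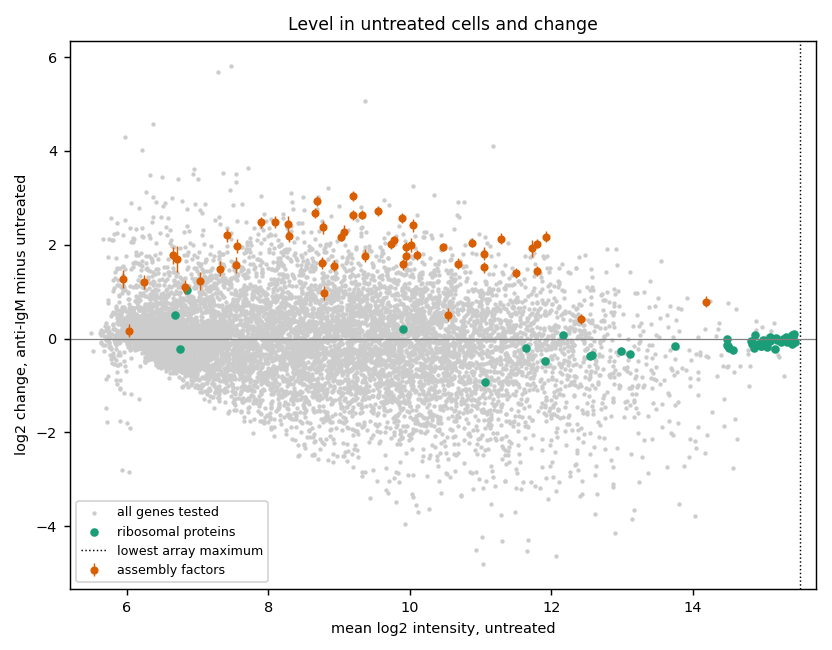
Change (log2, anti-IgM minus untreated) against mean log2 intensity in untreated cells for all 11843 genes tested (grey), the 51 assembly factors (orange, bars ± SE) and 51 ribosomal protein genes (green), with a dotted line at the lowest array maximum. The tested assembly factors lie above 0 at untreated levels from 5.94 to 14.18. Rrs1, at 5.94, passed the filter through the anti-IgM arrays alone, Dkc1 was not called, and the 7 untested members are not shown. In both groups 33 ribosomal protein genes crowd within 1 log2 unit of the maximum.

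Probes of the same gene mostly gave the same picture. The members had 101 probes, of which 82 were tested over all 23505 probes that passed the filter. Of these 82, 78 were higher, none lower and 4 not called, against 21.2% of all probes higher. In 24 genes with at least 2 tested probes, 21 had every probe higher, and no gene had called probes in opposite directions. Probe changes lay within 0.5 of each other in 17 of the 24, Wdr75 and Grwd1 among them. Wdr3, Tsr1 and Bop1 each had a second, dimmer probe that was not called, with changes of 0.16 ± 0.14, 0.25 ± 0.23 and 0.32 ± 0.12. Ebna1bp2's dimmer probe was called and changed by 1.00 ± 0.17, against 2.57 ± 0.11 for the brighter one. Nip7's dimmer tested probe was called at 1.08 ± 0.20, against 1.96 ± 0.09 for its brightest. Tsr2's dimmer probes were called at 0.49 ± 0.14 and 0.60 ± 0.16, against 1.23 ± 0.19 for its brightest. Which transcripts these dimmer probes detect was not analysed here.

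The 3 numbered pairs gave almost the same medians over the members tested, 1.93 for pair 1, 1.96 for pair 2 and 1.87 for pair 3. The difference was above 0 in all 3 pairs for 50 members, and for 35.0% of all genes. The difference between the largest and smallest pair value had a median of 0.34 over the members and was greatest for Rrs1, at 0.86. With the replicate number as a block the count stayed at 50 higher.

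**Figure D3:**
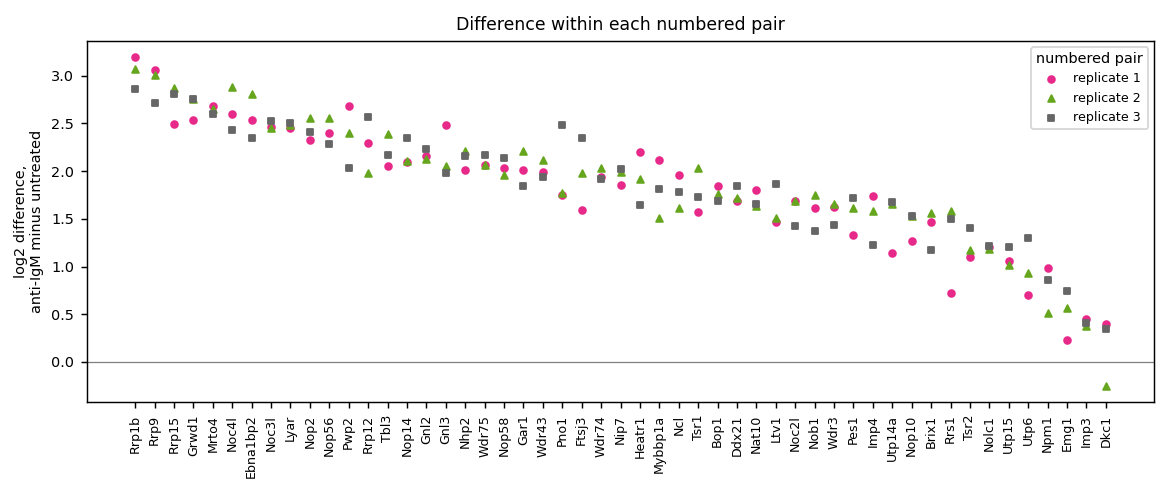
Log2 difference, anti-IgM minus untreated, within each numbered pair (replicate 1 circles, replicate 2 triangles, replicate 3 squares) for the 51 tested members in order of mean change. All 3 differences are above 0 in 50 members, and Dkc1 at the right has 1 below 0.

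Other genes of ribosome assembly, from 5 lists that do not share genes with the members, rose as well. Of 100 tested genes 85 rose and 3 fell, with a median of 1.15, where 23.2% of all genes tested rose and 23.9% fell. With the replicate block 4 fell, the added gene being Trmt112 (-0.43 ± 0.17, adjusted p = 0.0545 without and 0.0138 with the block). For 30 other small-subunit factors 23 rose and 1 fell (median 1.16). Nol10 rose most (2.39 ± 0.09), and Ddx52, a helicase, was the one that fell (-0.45 ± 0.15). Ddx52 missed the threshold without anti-IgM replicate 1 (adjusted p = 0.082) or 2 (0.052) and without untreated replicate 2 (0.12) or 3 (0.054). For 37 other large-subunit factors 32 rose and 2 fell (median 1.50). Ppan, a partner of the large-subunit particle, rose most (2.33 ± 0.12). Nop53, which recruits the RNA exosome, fell (-0.86 ± 0.11), as did Nsa2 (-0.25 ± 0.08). Nsa2 missed the threshold without anti-IgM replicate 1 (0.066) or 2 (0.085), without untreated replicate 2 (0.12) or 3 (0.054), without both replicate 1 arrays (0.053) and without the intensity trend (0.095).

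Assembly of the guide ribonucleoproteins, decay of spacer RNA and transcription of the precursor were covered by 3 further lists. Beside their counts stand the 23.2% of all genes tested that rose and the 23.9% that fell. Of 10 tested assembly factors of small nucleolar ribonucleoproteins 9 rose and none fell (median 1.55). Shq1, the chaperone of dyskerin, rose by 2.31 ± 0.13 although Dkc1 itself was not called. For the RNA exosome, the nuclease that trims precursor ends, 10 of 11 rose and none fell (median 0.98), and Exosc6 rose most (1.68 ± 0.12). For RNA polymerase I and its factors 11 of 12 rose and none fell (median 0.99), and Polr1b, a catalytic subunit, rose most (2.47 ± 0.12).

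The ribosomal proteins are what the assembly factors put together. Of 51 tested ribosomal protein genes 2 rose, 5 fell and 44 were not called, with a median of -0.07. In the same fit 23.2% of all genes tested rose and 23.9% fell. Of 21 small-subunit genes Rps15a rose (1.03 ± 0.19), and Rps3a1 (-0.47 ± 0.12) and Rps15 (-0.25 ± 0.09) fell. Of 30 large-subunit genes Rpl6 rose (0.50 ± 0.15), and Rpl22 (-0.92 ± 0.11), Rpl21 (-0.36 ± 0.11) and Rpl13a (-0.36 ± 0.12) fell. With the replicate block 7 fell, the added genes being Rps25 (-0.33 ± 0.12, adjusted p = 0.0534 without and 0.00383 with the block) and Rpl7a (-0.26 ± 0.12, 0.0988 without and 0.0321 with it). Rps15a and Rpl6 were read by dim probes, with untreated means of 6.85 and 6.68. The limit here is the scale, since in 33 of the 51 both group means came within 1 log2 unit of 15.52, the least bright array's maximum. Among the other 18, 2 rose and 5 fell, with a median of -0.20. The 95% interval of the change lay below 1, a doubling, for 50 of the 51, but near the top of the scale an interval does not cover compression of the signal. Calls were lost without some single arrays. Rpl6 missed the threshold without anti-IgM replicate 2 (adjusted p = 0.063) or untreated replicate 3 (0.059), Rpl21 without anti-IgM replicate 2 (0.070) or untreated replicate 1 (0.058) or 3 (0.066), and Rpl13a without anti-IgM replicate 3 (0.13) or untreated replicate 1 (0.11) or 2 (0.073). Rps15 missed it without anti-IgM replicate 1 (0.095) or 3 (0.11) and untreated replicate 2 (0.15) or 3 (0.073), and both Rps15 (0.11) and Rpl13a (0.072) without the intensity trend. Rps15 was not called without both replicate 1 arrays (0.070) or after quantile normalization (0.083), nor was Rpl21 with the mean of its probes (0.091). Many of these genes have processed copies that a probe may also read, which was not tested.

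**Figure D4:**
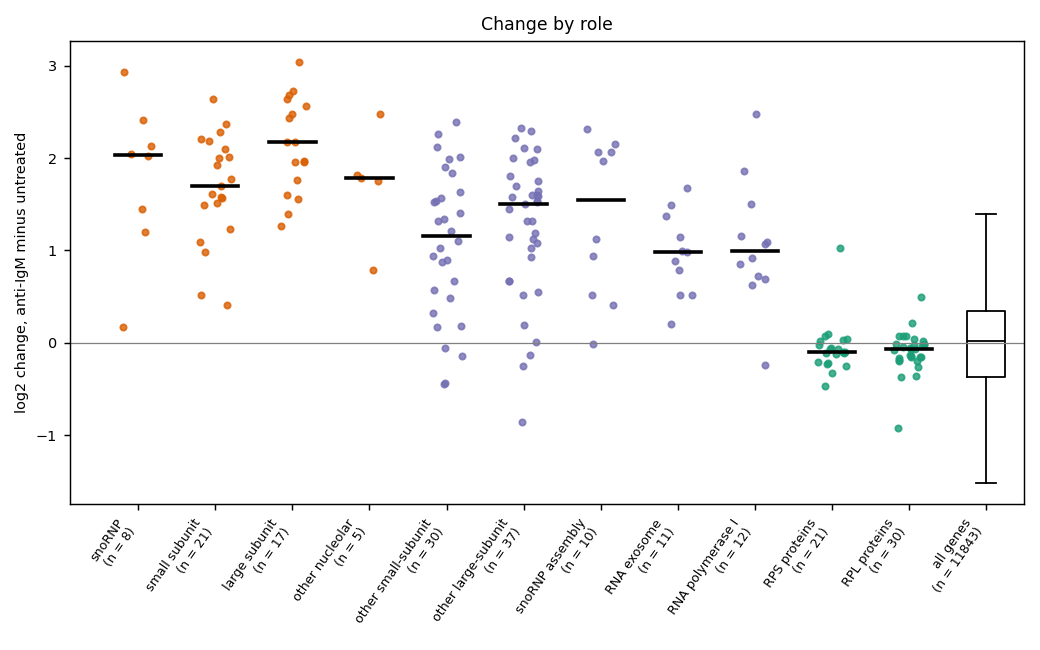
Change (log2, anti-IgM minus untreated) of each gene tested, by role, for the 4 groups of assembly factors (orange), 5 lists of other pathway genes (purple) and ribosomal proteins of the small (RPS) and large (RPL) subunit (green), with black lines at medians. The box for all 11843 genes spans the quartiles with whiskers from the 5th to the 95th percentile, and the medians of the 4 orange groups lie between 1.70 and 2.17 while those of the green groups lie near 0.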

How the data were processed

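Total RNA of 6 samples was amplified to biotinylated cRNA and read on Illumina bead arrays, per the labels' protocols. The authors deposited intensity values per probe on a linear scale, already normalized between arrays, as the values show (array medians within 0.0453% and 75th percentiles within 0.358% of each other). How they normalized, and with what software, was not given in the sources used here. The 6 columns of a further table, of signals before normalization, match no sample by name and were left out. The array median stood in for background, since no detection p-values were used.

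Values were taken as log2. Of 45281 probes 34885 had 1 symbol in the platform annotation, and names were checked by Entrez ID in the RefSeq gene table of GRCm38.p6 (34807 matched, 0 changed). Each gene was its brightest probe. A limma 3.58.1 fit under R 4.3.3 compared the groups (group alone, intensity trend, two-sided), with Benjamini-Hochberg adjustment over all genes tested and a threshold of 0.05. The fit was tested on simulated data, with a result that is not given here. Replicates share numbers 1 to 3 across groups, and deviations of same-numbered arrays from their group means correlated at 0.57, 0.24 and 0.29, so a fit with the replicate block was run beside it. Plots used Python 3.11.15 and matplotlib 3.10.9.

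The members, lists and tests were chosen with earlier results of these data known. Values of every array are given for the largest rise of each subcomplex, for members not called or not tested and for a few more chosen after their values were seen. For each list the largest rise and fall among called genes, and all genes of a direction with 5 or fewer calls, are named, and genes that only the block called were added after their values were seen. The number of arrays limits the precision.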

Additional observations from a re-analysis of the deposited data

How the results depend on the processing

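In 16 other settings the number of members higher with anti-IgM was 48 to 50 and the number lower was 0. The 48 came from asking for probes above the median on all arrays, which 48 members passed. Leaving out 1 array gave 49 to 50 members higher and 0 lower, and Emg1 was the member that lost its call. The replicate block, leaving out both replicate 1 arrays, quantile normalization, arrays centred on their medians, no intensity trend and robust eBayes each gave 50 higher. Of 813 comparisons of a member with its main call, 810 gave the same call. The median change of the members was 1.88 to 1.97 when 1 array was left out, 2.07 after subtraction of the 5th percentile of each array with a floor of 16, and 1.78 with no filter on dim probes, where 7 members near background enter. The replicate block changed no member's call, but it added calls in the other lists.

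The counts of ribosomal protein genes and of other pathway genes were put through the same settings after the values were seen. Ribosomal protein genes higher numbered 1 to 3 when 1 array was left out and 4 with the mean of all probes of a gene. Ribosomal protein genes lower numbered 3 to 6 when 1 array was left out, 8 with probes above the median on all arrays, 8 with the mean of all probes, 3 without the intensity trend, 8 with robust eBayes and 7 with the replicate block. Other pathway genes lower numbered 1 to 3 when 1 array was left out and 5 with the mean of all probes, and 4 with the replicate block. Other pathway genes higher numbered 82 to 86 over all these settings. Signal near the array median limits the 7 untested members and Dkc1, and signal near the array maximum limits Npm1 and 33 ribosomal protein genes.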
